A study of Mus musculus with 4 samples.

Results

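Genes that mark resident and C1q-expressing macrophages were examined in single-cell RNA sequencing of Dalton's lymphoma ascites (DLA) tumors from 4 samples, Control 1 and Control 2 from control mice, and SP11 1 and SP11 2 from mice given SP11, an HSP90 inhibitor. The 10 genes, C1qa, C1qb, C1qc, Cd5l, Fcna, Pf4, Trem2, Apoe, Gata6 and Timd4, were taken by symbol from the 32285 genes of the count matrices, and all 10 were found. They were followed in myeloid cells, defined as cells with at least 4 unique molecular identifiers (UMIs) of Lyz2, Tyrobp, Fcer1g and Ctss together and at most 2 UMIs of Krt8 and Krt18. Control 1 had 36 such cells among 916 kept cells, Control 2 had 20 among 566, SP11 1 had 282 among 1831 and SP11 2 had 235 among 1091, which makes 573 of 4404. In every group DLA cells had been injected into the peritoneum of Swiss albino mice, which keep their own immune cells, and tumors were digested with red cell lysis before loading. SP11 was given orally at 30 mg/kg for 17 days. The control samples are labelled untreated, while the study's supplement speaks of vehicle controls, and no source gives the age of the mice or how many mice make up a library.

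C1q is the recognition protein of the classical complement pathway, assembled from the A, B and C chains that C1qa, C1qb and C1qc encode, and much of it is made by tissue macrophages. In the peritoneal cavity of mice, large resident macrophages depend on the transcription factor GATA6 and carry the phosphatidylserine receptor TIM4 (Timd4), while smaller macrophages derive from blood monocytes. Trem2 encodes a lipid-sensing receptor and Apoe a lipid transport protein, and both are common in macrophages that take up lipids and debris.

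The 3 chain genes lie side by side on the minus strand of chromosome 4 (GRCm38, GENCODE M21), C1qb at chr4:136880129-136886187, C1qc at chr4:136889804-136893065 and C1qa at chr4:136895917-136898803. Apoe lies at chr7:19696109-19699188, Trem2 at chr17:48346401-48354147 and Pf4 at chr5:90772435-90773383. Upstream sequence is shown for the chains found in the RefSeq promoter table (GRCm38.p6, 8 of the 10 genes matched), because the chains were detected in the same cells. Capitals mark GAGGAA, the core of a site for PU.1, a master factor of myeloid cells, searched on both strands, so that TTCCTC is GAGGAA read on the other strand.
C1qb, 250 bases before the RefSeq start, chr4:136886201-136886450, minus strand: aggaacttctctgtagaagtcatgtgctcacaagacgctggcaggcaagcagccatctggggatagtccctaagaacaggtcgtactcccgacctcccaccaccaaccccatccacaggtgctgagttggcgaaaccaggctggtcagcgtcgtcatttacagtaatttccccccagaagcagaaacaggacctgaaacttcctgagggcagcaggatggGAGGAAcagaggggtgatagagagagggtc
C1qc, 99 bases before the annotated gene, chr4:136893066-136893164, minus strand: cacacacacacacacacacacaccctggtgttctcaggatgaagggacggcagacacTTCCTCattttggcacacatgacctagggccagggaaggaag
GAGGAA was present in 23.3% of the 32851 promoters of the table, counted over the 250 bases before each start. A match of these letters describes the window and is not evidence of binding.

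The libraries held 9646197 to 13632163 UMIs in all, but myeloid cells took only 51055 to 470595 of them, with a median of 1045.5 to 2539.5 UMIs per cell. Although the samples are labelled lymphoma, Krt8- and Krt18-positive cells (more than 2 keratin UMIs and under 4 gate UMIs) made up 92.0% and 93.6% of kept control cells and 64.5% and 50.7% of kept SP11 cells. B cells numbered 1, 0, 159 and 142. They were defined by at least 2 UMIs of Cd79a, Cd79b and Ms4a1, with under 4 gate UMIs and at most 2 keratin UMIs. Among kept cells, 54 to 215 barcodes were shared by each pair of libraries. The class of the shared barcodes agreed in 37.2% to 87.0% of them against 37.6% to 86.4% for unrelated cells. Of the 4404 kept barcodes, 1560 were also listed in another library, as were 179 of the 573 myeloid barcodes. The first 9 bases of all barcodes took only 192 distinct forms. The cause of this sharing was not tested. Erythroid RNA stood apart in Control 1: the 8 erythroid genes summed to 279 CPM there (counts scaled to a common total, so that 1 CPM is 1e-06 of the UMIs of the summed cells), 39604 in Control 2 (where 1 cell was hemoglobin-rich), 85950 in SP11 1 and 100724 in SP11 2. Values of the tested members without hemoglobin-rich cells are therefore given beside each comparison.

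The C1q chains were present in the myeloid cells of all 4 libraries. C1qa had 16 UMIs in Control 1, 17 in Control 2, 147 in SP11 1 and 121 in SP11 2, or 263, 333, 445 and 257 CPM. C1qb had 214, 294, 361 and 221 CPM in the same order, and C1qc had 82.1, 97.9, 194 and 106 CPM. For C1qa both control libraries lay between the SP11 libraries, for C1qb Control 1 was the lowest and Control 2 lay between the SP11 libraries, and for C1qc both SP11 libraries were above both control libraries, an order shared by 28.1% of all genes tested in these sums. The small control sums rest on few cells. In Control 2, 1 cell held 33 of the 37 chain UMIs, whereas the highest cell of Control 1 held 10 of 34, that of SP11 1 held 28 of 330 and that of SP11 2 held 63 of 275.

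The chains kept nearly the same proportion to each other in myeloid cells of every library. C1qa made up 44.0% to 47.1% of the chain UMIs, C1qb 36.1% to 40.5% and C1qc 13.5% to 19.4%. In keratin-positive cells the proportion was different in the SP11 libraries, where C1qa made up 69.6% of 46 UMIs in SP11 1 and 78.6% of 14 UMIs in SP11 2.

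Of the lipid-linked members, Apoe was found in more myeloid cells than any other member in all 4 libraries. It was detected in 19 of 36 myeloid cells of Control 1, 8 of 20 of Control 2, 141 of 282 of SP11 1 and 90 of 235 of SP11 2, at 1100, 490, 1609 and 943 CPM. The groups overlapped on both scales. Trem2 was found in 11.1%, 25.0%, 16.0% and 18.7% of the cells, at 65.7, 235, 173 and 153 CPM, and here both SP11 libraries lay between the control libraries.

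Pf4, the chemokine CXCL4, which is best known from platelets and is also made by macrophages, was the member whose sums were higher in controls. It had 526 CPM in Control 1, 294 in Control 2, 233 in SP11 1 and 134 in SP11 2, so that the groups did not overlap, and 27.3% of all genes tested also had both controls above both SP11 libraries. It was found in 4, 4, 26 and 15 cells. In Control 1, 1 cell held 18 of the 32 Pf4 UMIs, and in Control 2, 1 cell held 8 of 15. The list of 9 platelet genes, which leaves out Pf4, summed to 0, 19.6, 6.06 and 0 CPM in the myeloid cells, with all 9 genes at 0 in Control 1 and SP11 2, 8 in Control 2 and 7 in SP11 1.

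Cd5l, a secreted scavenger receptor protein of resident macrophages, and Fcna, the lectin ficolin A, were sparse. Cd5l had 1, 0, 28 and 16 UMIs in 1, 0, 15 and 5 cells. In SP11 2, 1 cell held 9 of its 16 UMIs. Fcna had 0, 3, 16 and 15 UMIs in 0, 2, 12 and 12 cells. In CPM, Cd5l was at 84.8 in SP11 1 and 34.0 in SP11 2, and Fcna at 48.5 and 31.9. In the control libraries 3 counts correspond to 49.3 and 58.8 CPM. Only Cd5l of SP11 1 lay above both of these values, and Control 1 held 1 Cd5l UMI. Neither gene passed the filter for a test, so a difference between the groups could not be judged at this depth.

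**Figure D1:**
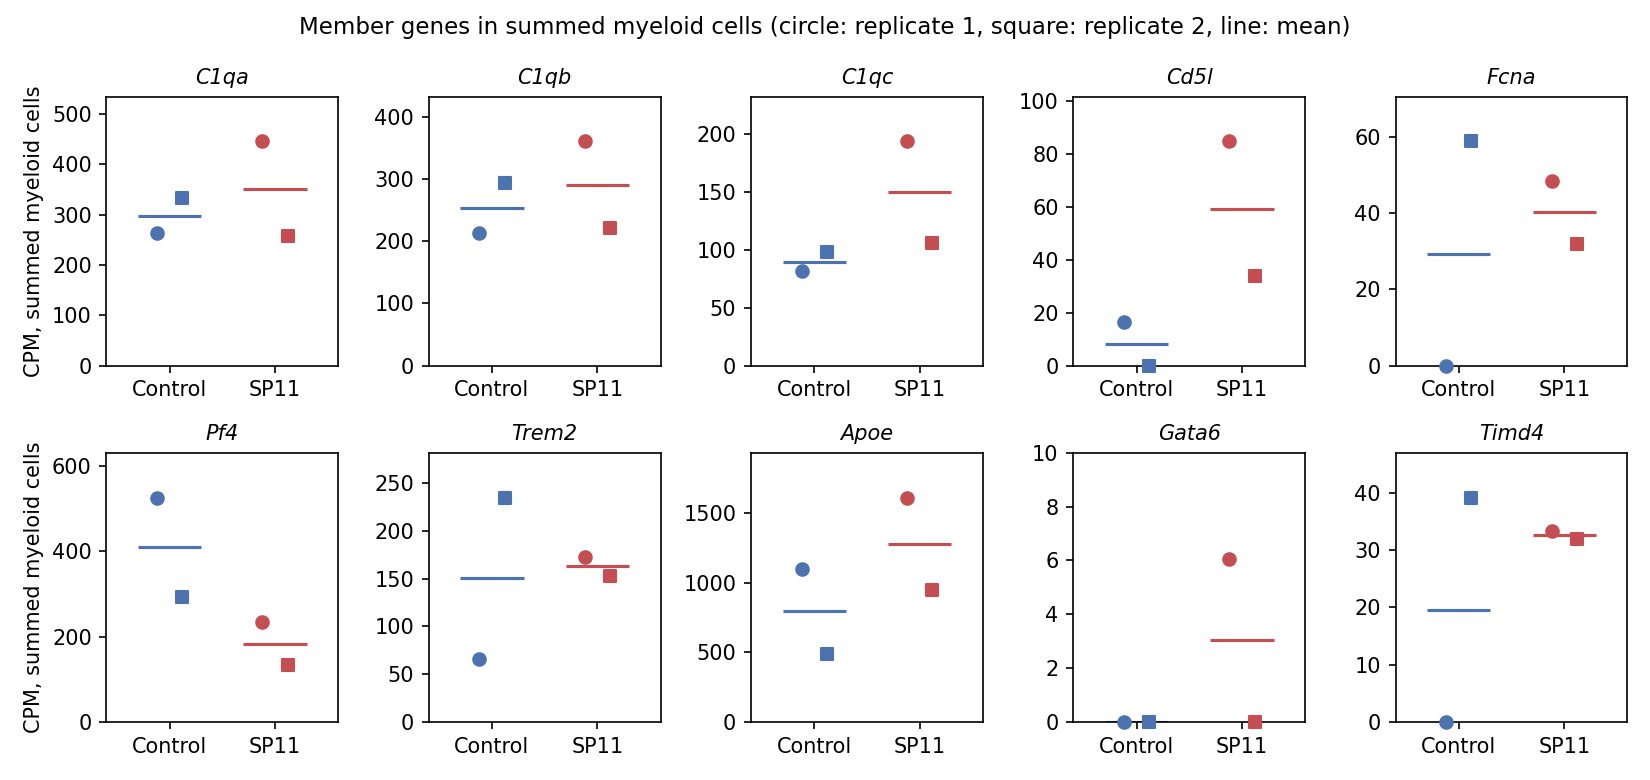
CPM (y axis, linear, each panel with its own range) of the 10 genes in the summed myeloid cells of each library, controls in blue and SP11 in red, with the mean of each group as a line. Pf4 has both controls above both SP11 libraries, C1qc and the sparse Cd5l have both SP11 libraries above both controls, and Gata6 is at 0 in 3 of 4 libraries.

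Gata6 and Timd4, which define large peritoneal macrophages, were found in few cells of either group. Gata6 had 0 UMIs in the 56 control myeloid cells, which allows a share of up to 5.36% of cells with a UMI, and 2 UMIs in 1 of 517 SP11 myeloid cells (0.193%, exact 95% interval 0.00490% to 1.07%). That cell was in SP11 1, held UMIs of another gene of the large peritoneal macrophage list and had no C1q UMI. Timd4 was found in 0 of 36 cells of Control 1, which allows up to 8.33%, and in 1 of 20 of Control 2 (5.00%, interval 0.127% to 24.9%). With SP11 it was in 10 of 282 cells of SP11 1 (3.55%, 1.71% to 6.42%) and 9 of 235 of SP11 2 (3.83%, 1.77% to 7.15%). The Gata6 shares pool the libraries of each group, and all these intervals cover counting error only. Of the 19 SP11 cells with Timd4, none held Gata6. Another gene of the list was held by 5 of the 10 Timd4 cells of SP11 1 and by 0 of the 9 of SP11 2.

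Across the 17 genes of the large peritoneal macrophage list, which includes Gata6, Timd4, Fcna and Cd5l, myeloid cells with a UMI of at least 1 gene numbered 2 of 36 in Control 1, 4 of 20 in Control 2, 47 of 282 in SP11 1 and 40 of 235 in SP11 2. At least 2 genes were held by 0, 2, 15 and 9 of these cells, and at least 3 genes by 0, 1, 5 and 3. Vsig4, a complement receptor of resident macrophages, and Ltbp1 were at 0 in all 4 libraries, and the 10 UMIs of Cxcl13, a chemokine for B cells, came from 1 cell of SP11 1. Prg4 had 0, 1, 11 and 1 UMIs, Selp 0, 0, 6 and 2, and Icam2 1, 1, 5 and 6. The most genes of the list seen together in 1 cell were 1 in Control 1, 3 in Control 2, 5 in SP11 1 and 6 in SP11 2, and none of the 17 genes passed the filter for a test.

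The 2 groups were compared gene by gene to ask whether the level of these genes in myeloid cells differed with SP11. With UMIs summed per library, 6 of the 10 genes passed the filter on low counts and 0 of these 6 was called at an adjusted p of 0.05 (edgeR quasi-likelihood test, Benjamini-Hochberg over 2769 genes), where 3.54% of all genes tested were called, 65 higher (2.35%) and 33 lower (1.19%) in SP11. At an unadjusted p under 0.05 there were 622 of these genes. Pf4 had a log2 fold change of -1.10 ± 0.35 (SE; edgeR adjusted p = 0.102), Apoe 0.77 ± 0.32 (adjusted p = 0.182) and C1qc 0.81 ± 0.52 (adjusted p = 0.375). For C1qa the value was 0.33 ± 0.35 (edgeR adjusted p = 0.624), for C1qb 0.29 ± 0.36 (0.681) and for Trem2 0.27 ± 0.47 (0.789). The median over the 6 members was 0.31 and that over all genes tested 0.10. Groups without overlap, as for Pf4 and C1qc, were seen for 55.5% of all genes tested, so the order of the libraries alone sets neither gene apart.

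Single libraries decided whether Pf4 and Apoe passed. Pf4 was called without Control 2 (log2 fold change -1.42, edgeR adjusted p = 0.0246) and without SP11 1 (-1.30, 0.00621), and was at -0.60 without Control 1 and -0.58 without SP11 2. Apoe was called without Control 1 (1.48, edgeR adjusted p = 0.0156), without SP11 2 (1.26, 0.00423) and with no filter on low counts (1.01, 0.00920, where the median of all genes moved by 0.24), and was at 0.33 without Control 2. Without hemoglobin-rich cells Pf4 was at -1.02 (edgeR adjusted p = 0.0903), Apoe at 0.74 (0.157), C1qa at 0.26 (0.735), C1qb at 0.13 (0.879), C1qc at 0.65 (0.512) and Trem2 at 0.20 (0.853). The chains were higher without barcodes shared between libraries, with C1qa at 1.03 (edgeR adjusted p = 0.227), C1qb at 1.41 (0.132) and C1qc at 1.85 (0.198), and without SP11 2, at 0.83 (0.173), 0.76 (0.249) and 1.35 (0.253). None of these values was called.

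Around the members, related genes of the same myeloid sums were counted by list. Of 11 tissue macrophage genes tested, 0 was higher and 2 were lower with SP11: Fcgr4, an activating Fc receptor (log2 fold change -2.04 ± 0.36, edgeR adjusted p = 0.00728), and the chemokine Ccl8 (-3.89 ± 0.73, 0.0104). Of 15 lipid and lysosome genes linked to Trem2, 2 were lower, the fatty acid binding protein Fabp5 (-1.69 ± 0.25, edgeR adjusted p = 0.00250) and the cathepsin Ctsl (-1.20 ± 0.26, 0.0222), and 0 was higher. Of 10 complement genes tested beside the chains, 0 was called in either direction. Of 11 monocyte genes, 2 were higher, fibronectin (Fn1, 1.90 ± 0.24, edgeR adjusted p = 0.000895) and the chemokine receptor Ccr2 (1.72 ± 0.42, 0.0365). With DESeq2, Ccl8 (adjusted p = 0.133) and Ccr2 (adjusted p = 0.0965) were not called. The medians of these 4 lists were -0.45, 0.05, 0.27 and 0.30.

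Genes of other cells moved in the same sums. Of 6 neutrophil genes tested 3 were higher with SP11 (S100a8, Retnlg and Ngp). DESeq2 called neither S100a8 (adjusted p = 0.125) nor Retnlg (adjusted p = 0.357) and gave no adjusted p for Ngp. Of 5 B cell genes tested 4 were higher (Igkc, Cd79a, Cd79b and Ighm), of which DESeq2 called Igkc and Cd79a and gave no adjusted p for the other two, with the 12 B cell genes at 16.4 and 0 CPM in controls and 1433 and 3251 CPM in SP11. The neutrophil list summed to 2398, 529, 2424 and 11959 CPM. Cells with at least 10 UMIs of S100a8 and S100a9 numbered 2, 1, 15 and 58 of the myeloid cells, and without them Pf4 was at -1.04 (edgeR adjusted p = 0.0897) and Apoe at 0.83 (0.106). Among the gate genes Lyz2 was itself higher with SP11 (1.35 ± 0.23, edgeR adjusted p = 0.00610).

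To see how many myeloid cells carried C1q, those with at least 2 UMIs of the 3 chains together were taken as C1q-positive. They numbered 6 in Control 1, 2 in Control 2, 46 in SP11 1 and 23 in SP11 2. As a share of myeloid cells this was 16.7% (exact 95% interval 6.37% to 32.8%), 10.0% (1.23% to 31.7%), 16.3% (12.2% to 21.2%) and 9.79% (6.31% to 14.3%). The replicates within each group differed more than the groups, at 13.3% ± 4.71 (SD, n = 2) in controls and 13.05% ± 4.61 (SD, n = 2) with SP11. With cells of at least 10 S100a8 and S100a9 UMIs left out, the means were 14.1% and 14.2%. All 3 chains were found in 2, 1, 24 and 15 of these cells.

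As a share of all kept cells the C1q-positive cells were more frequent with SP11. They made up 0.655% (exact 95% interval 0.241% to 1.42%) of Control 1, 0.353% (0.0428% to 1.27%) of Control 2, 2.51% (1.85% to 3.34%) of SP11 1 and 2.11% (1.34% to 3.15%) of SP11 2. The group means were 0.504% ± 0.213 (SD, n = 2) and 2.31% ± 0.286 (SD, n = 2), a ratio of 4.58. The values of the groups did not overlap, though the intervals of Control 1 and SP11 2 did. The myeloid share itself was 3.73% ± 0.280 in controls and 18.5% ± 4.34 with SP11 (SD, n = 2 each), a ratio of 4.95. With 2 libraries a group an exact permutation test cannot reach 0.05, so no test was made, and the intervals cover counting error only. In shares of one tumor, more C1q-positive cells and fewer other cells cannot be told apart.

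**Figure D2:**
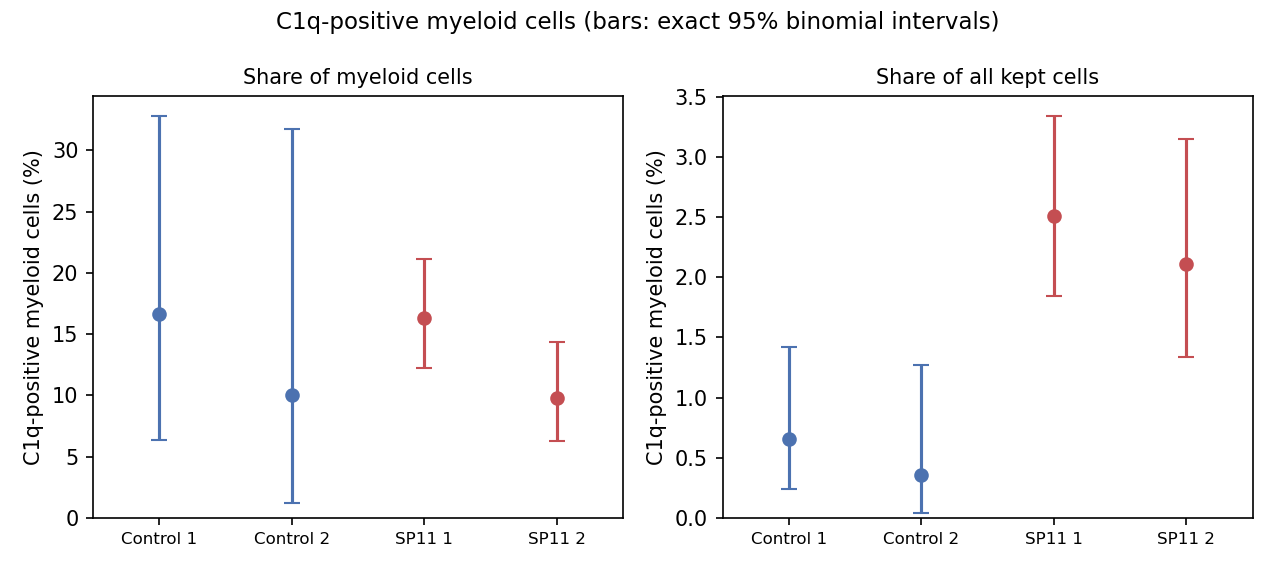
C1q-positive myeloid cells of each library as a percent of myeloid cells (left) and of all kept cells (right), with exact 95% binomial intervals. The shares of myeloid cells lie between 9.79% and 16.7% with overlapping groups, and the shares of kept cells are below 0.7% in controls and above 2% with SP11.

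The other members were then compared between C1q-positive cells and cells with 0 chain UMIs (C1q-zero) of the same libraries. Apoe was higher in C1q-positive cells of all 4 libraries: 1869 against 858 CPM in Control 1, 1243 against 381 in Control 2, 3158 against 1137 in SP11 1 and 1845 against 727 in SP11 2. The log2 fold change was 1.39 ± 0.15 (edgeR with the library as a block, adjusted p = 1.93e-05). Trem2 was also higher in all 4 libraries, at 89.02 against 62.8, 311 against 224, 319 against 130 and 393 against 103 CPM, with a log2 fold change of 1.48 ± 0.31 (edgeR adjusted p = 0.00717). In the control libraries the C1q-positive Trem2 values rest on 1 and 2 UMIs, and Trem2 was not called without SP11 1 (1.62, edgeR adjusted p = 0.0888) or without SP11 2 (1.18, 0.427).

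Pf4 was split between libraries. It was higher in C1q-positive cells of Control 2, SP11 1 and SP11 2 (1709, 683 and 183 CPM against 89.6, 121 and 73.8) and at 0 in those of Control 1, where the C1q-zero cells had 544 CPM. The log2 fold change was 1.72 ± 0.54 (edgeR adjusted p = 0.0954), and without Control 1 it was 2.32 (0.000298). Together 2 of the 3 members that could be tested were called, where 3.55% of 733 genes were called, 19 higher (2.59%) and 7 lower (0.955%). The chains chose the cells and are left out of these counts, though their p-values stood in the adjustment. Without them in it, the adjusted p of edgeR was 7.67e-05 for Apoe, 0.00841 for Trem2 and 0.102 for Pf4, and the counts of genes called were the same. Without hemoglobin-rich cells Apoe was at 1.32 (edgeR adjusted p = 5.06e-05), Trem2 at 1.63 (0.00197) and Pf4 at 1.82 (0.0191), so that Pf4 was then called.

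Of the members too sparse to test, Cd5l and Fcna were concentrated in C1q-positive SP11 cells, while the 1 cell with Gata6 had no chain UMI. Cd5l was found in 12 of 69 C1q-positive cells (17.4%, exact 95% interval 9.32% to 28.4%) and in 6 of 426 C1q-zero cells (1.41%, 0.519% to 3.04%). Fcna was found in 14 of 69 (20.3%, 11.6% to 31.7%) and 6 of 426 (1.41%, 0.519% to 3.04%). These shares pool both SP11 libraries, and the intervals cover counting error only. By library, Cd5l was in 9 of 46 against 5 of 220 cells of SP11 1 and in 3 of 23 against 1 of 206 of SP11 2. Fcna was in 8 of 46 against 1 of 220 and in 6 of 23 against 5 of 206. In SP11 2 the C1q-positive cells held 5 Cd5l UMIs and 1 C1q-zero cell held 9. Timd4 was less apart, with 6 of 69 (8.70%, 3.26% to 18.0%) against 12 of 426 (2.82%, 1.46% to 4.87%), and Timd4 CPM were higher in C1q-positive cells of SP11 1 (60.7 against 24.3) and lower in those of SP11 2 (26.2 against 34.3). C1q-positive cells were deeper, with a median of 1440.5 against 995.5 UMIs in SP11 1 and 2662 against 1575.5 in SP11 2. After each cell was thinned to 500 UMIs, Cd5l was in 7.25% and 0.939%, Fcna in 11.6% and 0.235%, and Timd4 in 2.90% and 1.41% of the cells. Of the SP11 2 myeloid cells, 1 kept Cd5l after thinning. Thinned Apoe was in 58.0% and 26.5%, and Trem2 in 13.04% and 5.63%. In the controls thinned Apoe was in 5 of 8 C1q-positive and 9 of 47 C1q-zero cells. Thinned Trem2 was in 0 of 8 (exact 95% interval 0% to 36.9%) and 3 of 47 (1.34% to 17.5%), too few cells to give a direction.

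**Figure D3:**
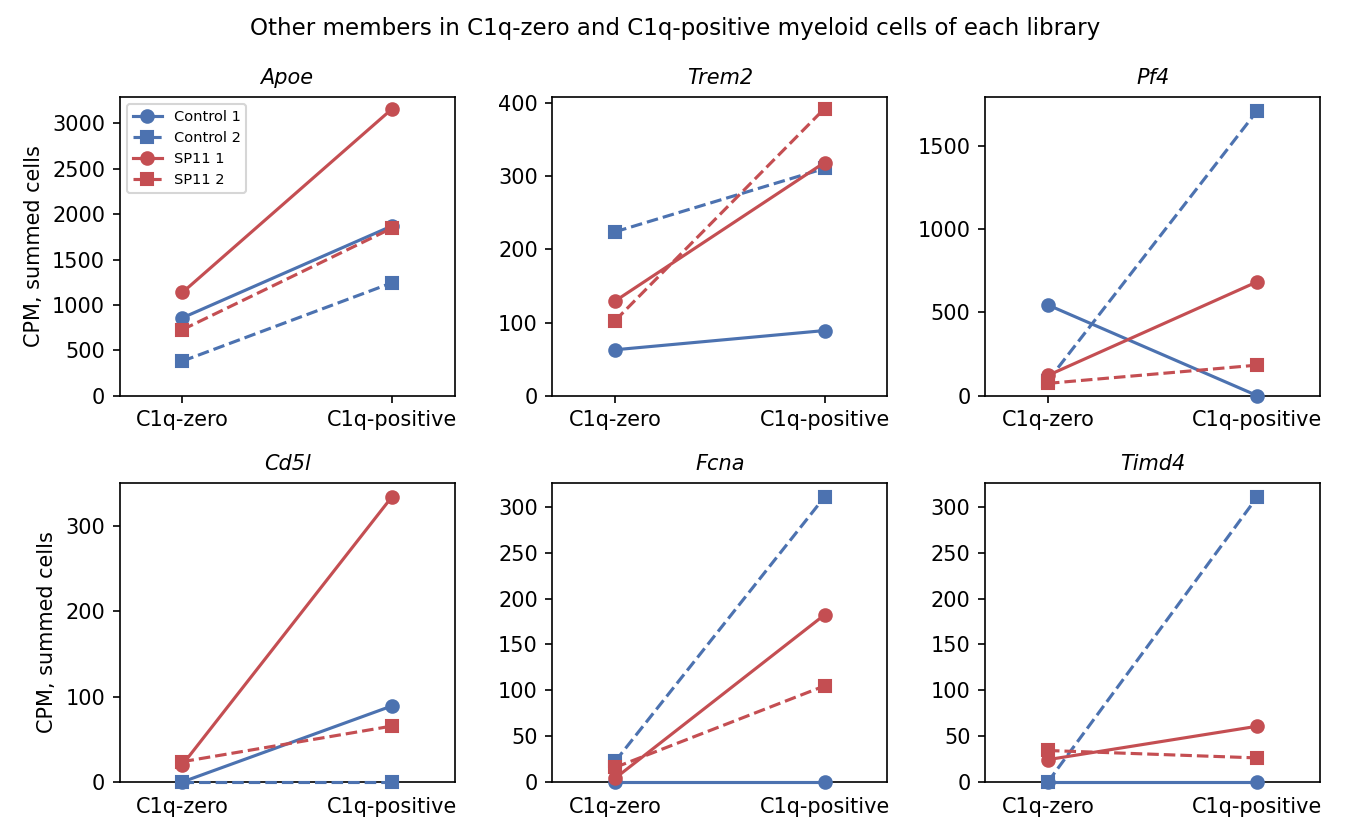
CPM (y axis, linear) of 6 members in the summed C1q-zero and C1q-positive myeloid cells, with 1 line per library (blue controls, red SP11, circles and solid lines replicate 1, squares and dashed lines replicate 2). Apoe and Trem2 slope upward in all 4 libraries, while Pf4 falls to 0 in Control 1.

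Of the sparse members, Cd5l and Fcna often came together in single SP11 myeloid cells. They shared 10 cells, out of 20 with Cd5l and 24 with Fcna. Timd4 cells held Cd5l in 2 of 19 cases and Fcna in 3 of 19, and the 1 cell with Gata6 held neither. Fcna cells held Apoe in 23 of 24 cases. Pf4 cells held Trem2 in 21 of 41, beside 17.2% of all SP11 myeloid cells. Timd4 cells held Apoe in 7 of 19 cases (36.8%), beside 44.7% of all SP11 myeloid cells, and Trem2 in 2 of 19. Deeper cells show more genes of every kind, so these counts describe overlap without a test.

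Genes were taken as most like the chains where they were called higher in C1q-positive cells and higher in all 4 libraries, which held for 15 of the 19 genes called higher. Ordered by fold, the leading 9 were Timp2, Selenop, Saa3, Ccl7, Fcgrt, Trem2, Apoe, Ctsd and Ctsb. The control part of this rule rests on 6 and 2 C1q-positive cells. There the 9 genes had 1 to 21 UMIs in Control 1 and 1 to 23 in Control 2, with Fcgrt at 3 and 1. How many of all genes tested were higher in all 4 libraries was not counted. Timp2, a metalloproteinase inhibitor, had a log2 fold change of 1.97 ± 0.35 (edgeR adjusted p = 0.00275), and the selenium carrier Selenop 1.81 ± 0.33 (0.00275). The acute phase gene Saa3 was at 1.80 ± 0.24 (edgeR adjusted p = 0.000213) and the monocyte chemokine Ccl7 at 1.58 ± 0.30 (0.00378). The lysosomal proteases Ctsd and Ctsb were at 1.36 ± 0.18 and 1.29 ± 0.18.

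By list, 2 of 7 tissue macrophage genes tested were higher, among them Selenop, and 3 of 9 lipid and lysosome genes (Ctsd, Ctsb and Ctsl), with none lower, and Ctsl was not called with DESeq2 (adjusted p = 0.296). Of 6 complement genes tested, 1 was higher, the alternative pathway regulator properdin (Cfp, 1.10 ± 0.27, edgeR adjusted p = 0.0314). The monocyte gene Plac8 was lower (-1.16 ± 0.25, edgeR adjusted p = 0.0110), as were both neutrophil genes tested, S100a9 (-2.32 ± 0.33, 0.000326) and S100a8 (-2.36 ± 0.39, 0.00166).

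**Figure D4:**
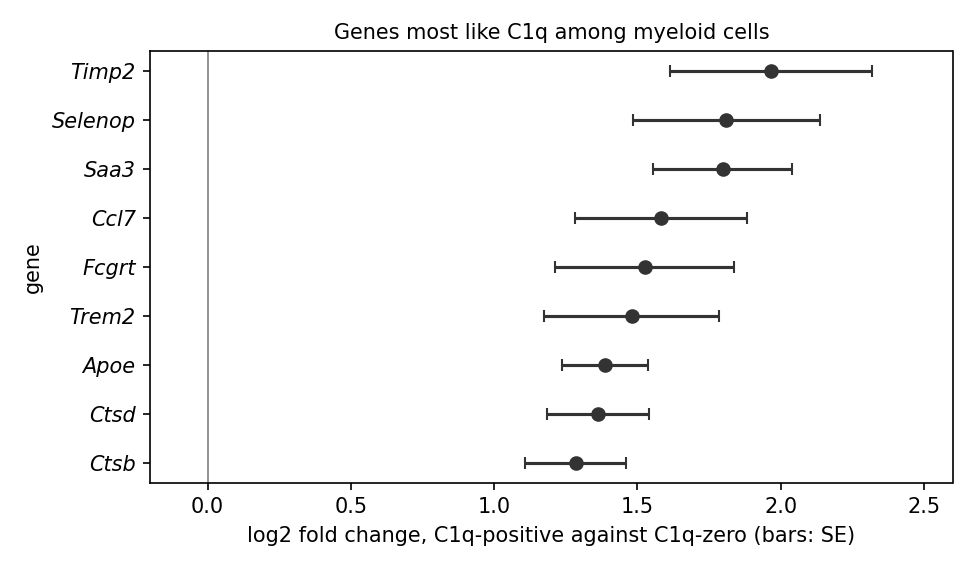
Log2 fold change (x axis) between C1q-positive and C1q-zero myeloid cells, with the library as a block, for the 9 genes most like the C1q chains, with bars for the standard error. All values lie between 1.29 and 1.97.

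Within C1q-positive cells alone, the SP11 and control libraries were compared to ask whether these cells differed with treatment. Apoe was higher with SP11 (log2 fold change 1.08 ± 0.34, edgeR adjusted p = 0.0235), while Trem2 was at 1.503 ± 0.886 (0.352) and Pf4 at -0.15 ± 0.64 (0.933), so 1 of 3 members tested was called, where 8.77% of 593 genes were called, 40 higher (6.75%) and 12 lower (2.02%). In CPM the Apoe groups overlapped, with 1869 in Control 1 and 1243 in Control 2 against 3158 in SP11 1 and 1845 in SP11 2. The controls are 6 and 2 cells, and the Apoe call was lost with DESeq2 (adjusted p = 0.442), with a threshold of 5 chain UMIs (edgeR adjusted p = 0.512) without hemoglobin-rich cells (log2 fold change 0.98, edgeR adjusted p = 0.267) and without any 1 of the 4 libraries (edgeR adjusted p = 0.0727 to 0.592). Without hemoglobin-rich cells Pf4 was at -0.021 (edgeR adjusted p = 0.994), and Trem2 no longer passed the filter on low counts. All 4 erythroid genes tested were higher with SP11, with the erythroid list at 356 and 0 CPM in controls and 100970 and 103455 CPM in SP11, and hemoglobin-rich cells numbered 0, 0, 9 and 3 of the C1q-positive cells.

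Other classes gave the background level of the members. T cells were defined by at least 2 UMIs of Cd3d, Cd3e, Cd3g, Trac, Trbc1 and Trbc2. B and T cells also had under 4 gate UMIs and at most 2 keratin UMIs. Lymphocyte barcodes with more myeloid RNA therefore fell into other classes, which can lower the shares found in B and T cells. In the 301 B cells and 95 T cells of the SP11 libraries no UMI of C1qa, C1qb, C1qc, Cd5l, Fcna, Gata6 or Timd4 was found, which allows up to 0.997% of B cells and 3.16% of T cells with a UMI, at a median depth of 1134 and 841 UMIs beside 1196 in SP11 myeloid cells. Any chain UMI was found in 17.6% of SP11 myeloid cells. Keratin-positive cells had a median of 12698 UMIs in controls and 10884.5 with SP11. A chain UMI was found in 1.31% (exact 95% interval 0.779% to 2.06%) of control and 3.23% (2.45% to 4.17%) of SP11 keratin-positive cells, at 0.998 and 2.64 CPM. These shares pool the libraries of each group, and the intervals cover counting error only. By library, C1qa was in 0.474% of these cells of Control 1, 1.13% of Control 2, 2.71% of SP11 1 and 1.81% of SP11 2. After thinning, a chain UMI was found in 0 of 843 cells of Control 1 and 1 of 530 of Control 2. It was found in 2 of 1181 of SP11 1 and 0 of 553 of SP11 2, too few to compare the groups.

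Apoe was the exception among lymphocytes. It was found in 11 of 159 B cells of SP11 1 (6.92%, exact 95% interval 3.504% to 12.0%) and in 32 of 142 of SP11 2 (22.5%, 16.0% to 30.3%), at 120 and 253 CPM and a median depth of 854 and 1573.5 UMIs, but in 0 of the 95 SP11 T cells. Pf4 was found in 4 and Trem2 in 1 of the 301 B cells. Fcna differed from the rest in keratin-positive cells, where it had 12, 8, 12 and 13 UMIs, or 1.25, 0.846, 1.06 and 1.14 CPM, and these cells held 49.5% of all its UMIs in kept cells, beside 37.4% in myeloid cells.

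**Figure D5:**
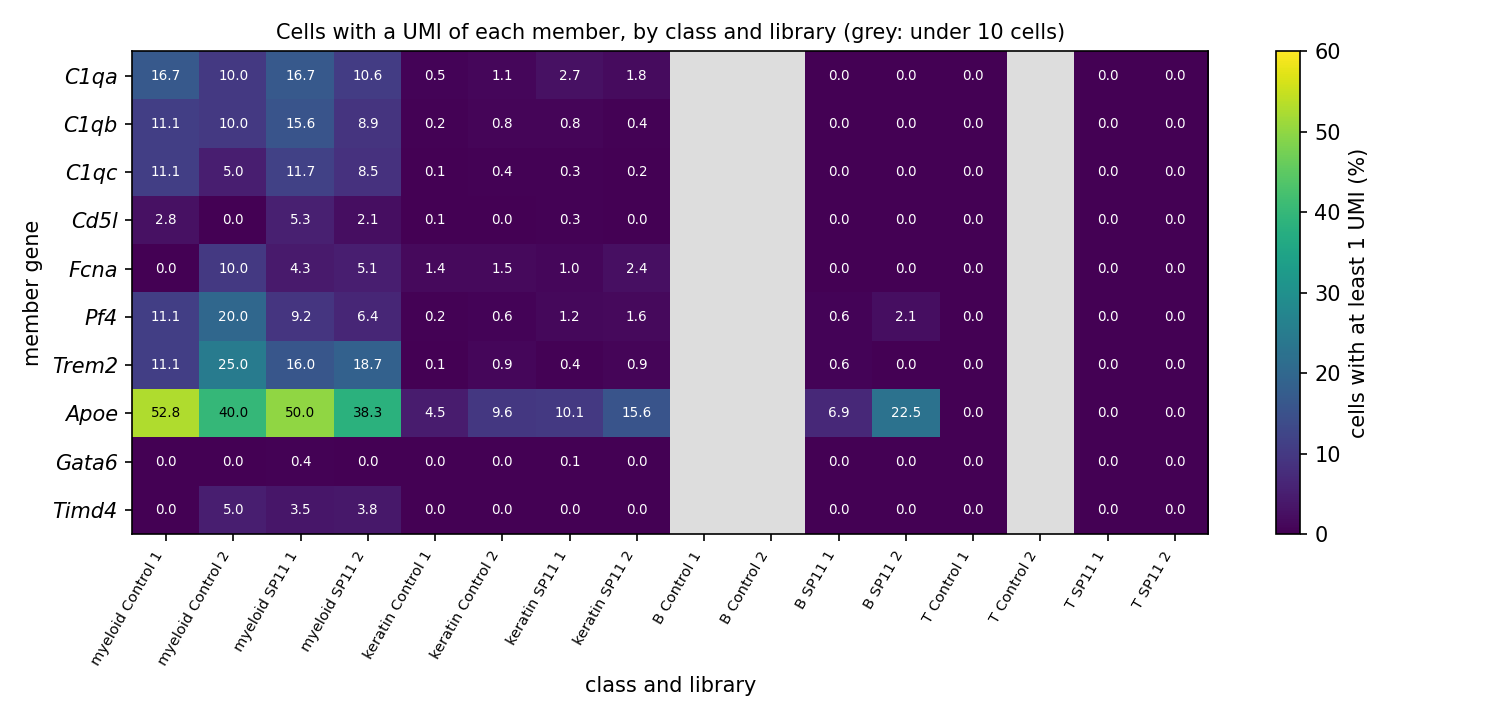
Percent of cells with at least 1 UMI (color and printed value) for each member in myeloid, keratin-positive, B and T cells of each library, with classes of under 10 cells in grey. The members are concentrated in the myeloid columns, Apoe is also present in B cells of both SP11 libraries, and Gata6 is at 0.4% or below in every column.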

How the data were processed

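The values deposited for the 4 samples are UMI counts of each gene in each barcode of the 10x 3′ assay, without normalization, made with Cell Ranger 7.1.0 per the file headers. The build is mm10 per the labels, while the study's methods name hg38, and the gene identifiers are those of mouse. Samples were grouped by their treatment labels. Nothing in the labels ties the replicates to single animals, so p-values measure the spread between these samples.

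Barcodes with at least 200 genes and at most 10% mitochondrial UMIs were kept. Counts were summed per library over the cells of a class and tested with edgeR 4.0.16 in R 4.3.3 (TMM, filterByExpr, quasi-likelihood test, Benjamini-Hochberg at 0.05 over all genes tested). DESeq2 1.42.0 was an alternative. SE is the log2 fold change divided by the root of F. CPM are counts scaled to a common total of the summed class. The study used a Wilcoxon test over cells, which was not used here, since cells are not replicates. Shares have exact Clopper-Pearson intervals at 95% (scipy 1.17.1), and a count of 0 was given a limit of 3 counts. Doublets were scored with Scrublet in scanpy 1.11.5 at a fixed score of 0.25, because its automatic threshold was unstable, and were kept. At the edge of the gate, 1, 0, 23 and 15 cells had 3 gate UMIs and 0, 0, 10 and 12 had 4.

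The members and gene lists were chosen with earlier results of these data known. Named were the 10 members, list genes that passed a test, gate genes, and the 10 genes with the largest fold among those called higher in C1q-positive cells and higher in all 4 libraries. Of these, 1 is not reported here. Single genes of the large peritoneal macrophage list were named after their values were seen. Alternatives changed the tool, the filters on genes and cells, the gate, the chain threshold, the depth of each cell and the libraries used. On simulated 4-fold changes the test recovered 68.0% of changed genes for the myeloid sums (2769 genes), 69.8% for C1q-positive sums (596 genes) and 94.0% for C1q-positive against C1q-zero cells (736 genes). In these runs it also called 6, 2 and 5 unchanged genes, in the same order. With no change it called 0.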

Additional observations from a re-analysis of the deposited data

How the results depend on the processing

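Of 154 values of single members under alternatives, 128 kept their direction and their side of the threshold. The genes called in myeloid sums, 65 higher and 33 lower, became 31 and 59 with DESeq2, which adjusted over 837 genes, and 10 and 3 with keratin UMIs of 0. No gene was called in either direction with cells thinned to 500 UMIs (0 and 0), where 1057 genes were tested. With no filter on low counts 166 were higher. The number lower was 76 without S100a8/S100a9 cells, 51 with a gate of 8 UMIs, 69 without genes of other cells and 66 without hemoglobin-rich cells, the last chosen after seeing the data. Leaving out 1 library gave 57 to 116 higher (116 without SP11 1) and 21 to 29 lower. C1qa was at -0.060 and C1qb at -0.089 with keratin UMIs of 0, C1qb at -0.55 when thinned, C1qa, C1qb and C1qc at 1.03, 1.41 and 1.85 without shared barcodes, and Trem2 was at -0.44 to 1.41 with 1 library left out, the lowest without Control 1. No filter on low counts moved the log2 fold change of all genes by a median of 0.24, keratin UMIs of 0 by 0.14 and thinning by 0.15.

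Within C1q-positive cells, 40 higher and 12 lower became 7 and 0 with DESeq2, 5 and 0 without hemoglobin-rich cells, 0 and 0 at a threshold of 5 chain UMIs, 1 lower with no filter, and 0 to 27 higher and 0 to 8 lower with 1 library left out (1 higher without SP11 1, 0 without SP11 2, 18 without Control 2). Pf4 was at 0.37 with no filter and at -1.41 to 7.49 with 1 library left out, the highest without Control 2. For C1q-positive against C1q-zero cells, 19 higher and 7 lower became 9 and 21 with no filter, where Apoe (0.94, edgeR adjusted p = 0.325) and Trem2 (1.13, 0.358) were not called and the median of all genes moved by -0.38, 5 and 0 when thinned, and 5 to 29 higher and 0 to 10 lower with 1 library left out. C1q-positive cells took 1.81 percentage points more of kept cells with SP11, 2.46 at 1 chain UMI and 1.22 at 5. The cause of these shifts was not tested.

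Whether the replicate numbers pair the samples is not known. The correlation of deviations between libraries of equal number was 0.0108, which cannot settle this with 2 libraries a group. The study's methods mention independent sets of samples without saying how they were matched. With the replicate block, myeloid sums gave 14 higher and 5 lower and C1q-positive sums 9 higher and 0 lower, where Apoe was at 1.14 (edgeR adjusted p = 0.119). Depth limits the controls most, with 56 myeloid and 8 C1q-positive cells. Without barcodes shared between libraries, chosen after seeing the data, Control 2 held 0 C1q-positive cells.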

Other observations

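Barcodes with both keratin and myeloid UMIs (at least 4 gate UMIs and more than 2 keratin UMIs) were left out of the comparisons. They numbered 10 in Control 1, 8 in Control 2, 112 in SP11 1 and 38 in SP11 2, and 2, 0, 11 and 0 of them had at least 2 C1q UMIs. Of the barcodes removed for few genes or many mitochondrial UMIs, 0 of 61, 0 of 29, 1 of 446 and 0 of 392 had at least 2 C1q UMIs.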
